A study of Mus musculus with 4 samples.

Results

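The genes described here are 10 markers of the adipocyte, the cell type that stores fat: the secreted factors Adipoq, Lep and Cfd, the lipid droplet proteins Plin1, Plin4 and Cidec, the fatty acid carrier Fabp4, the lipogenic enzymes Scd1 and Fasn, and the regulator Pparg. They were chosen by symbol, as every start site assigned to 1 of these genes, both site by site and summed per gene. Of the 10 genes, 9 had at least 1 site and Cidec had none. Together they held 47 of the 42207 sites and made up 9 of the 9838 genes of the data set. They were measured in gastrocnemius muscle of adult male mice with the method named whole transcriptome start site sequencing (WTSS-seq), which reads RNA from its 5′ end, so that a read marks the start of a transcript or of a piece of one. The KO group was AMPKα2-/- mice on C57BL/6 (2 mice, 1 library each), in which part of the catalytic domain of this subunit of the energy-sensing kinase AMPK had been removed from the whole body. The WT group was their wild-type controls (2 mice, 1 library each), and neither group received a treatment that the labels name.

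Adipocytes hold triglyceride in a lipid droplet coated by perilipins and CIDE proteins, build fatty acids with lipogenic enzymes and release hormones such as adiponectin and leptin. Muscle contains some adipocytes between its fibres and along its vessels, and a dissected muscle can carry fat from its surface. Several of these genes are not exclusive to adipocytes: Fabp4 is also made by capillary endothelium and macrophages, and Scd1, Fasn and Pparg are made at lower levels in other cells. AMPK phosphorylates and inhibits acetyl-CoA carboxylase and thereby restrains the synthesis of fatty acids. In RNA from whole muscle, fewer adipocytes and less RNA of a gene per adipocyte cannot be told apart.

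The libraries held 1300069 to 2900279 reads, with more in each KO library than in either WT library. A floor of 3 reads, which covers counting error only, was 1.03 to 2.31 parts per 1e6 reads (ppm). Replicates differed by more than sampling noise, with a chi-square per degree of freedom over sites of 10.5 in KO and 6.46 in WT. Prkaa2, the targeted gene, had 149 and 183 normalized counts in KO against 153 and 186 in WT; this sum takes in sites outside the deleted part and therefore does not check the labels. Fibre genes fitted the label muscle: all 12 of the muscle fibre genes listed had sites and together took 35021 to 46325 ppm.

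The sites of the marker genes lay mostly inside the transcripts and seldom at an annotated start. By their Cuffcompare class code, 37 of the 47 sites were contained in an exon (code c), 4 were intronic, 3 ran from an exon into an intron, 2 had another exonic overlap and 1 lay just past a gene's 3′ end. Intronic sites made up 8.51% of the marker sites and 54.3% of the 28651 sites of the 6440 other genes compared. Only 1 marker site, in Plin4, lay within 100 bp of an annotated start, which is 2.13% of them, against 3.23% of the sites of other genes. Of the reads of the marker genes, 0.177% came from that site, or 2.39% with Fabp4 left out, and 8.86% of the reads of other genes came from sites this close to a start. These shares describe the sites and were not tested, because sites of 1 gene share their transcripts. The terms also differed: no RefSeq promoter was listed for Fabp4 and Scd1, so only the 5′ end of their span counted as a start. The other genes compared all had a listed promoter, and only their sense sites were counted.

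The site at a start is shown by its sequence, as the marker site that lay beside an annotated transcript start. It covered chr17:56109784-56109810 (GRCm38, minus strand), 2 to 28 bp upstream of the start of a Plin4 transcript in RefSeq. The annotated 5′ end of the gene lies further upstream. The site was 141 bp downstream of that end and contained in an exon (code c), so the bases shown lie inside the gene's span. The bases before that start, chr17:56109783-56109810 in GRCm38.p6 from RefSeq, read 5′ to 3′ on the minus strand, with the capitals marking the reverse complement of the CCAAT box:
Plin4: aggcttggggATTGGgcgcccagacgct
The capitals stand 18 to 14 bases before the annotated start. Searched on both strands over the 250 bases before each start, CCAAT was present in 33.8% of 32851 RefSeq promoters and in 5 of the 11 promoters listed for 8 of the marker genes. The TATA box (TATAAA) was present in 12.4% of all promoters and in 1 of these 11, of Pparg. The nuclear receptor motif (AGGTCA), a part of the element that PPARγ binds, stood in 14.0% of all promoters and in 2 of the 11, both of Pparg. The C/EBP core (TTGCNNAA) was found in 9.56% of all promoters and in 4 of the 11, of Cidec, Lep, Plin1 and Pparg. A match is a description of letters only. At this Plin4 site, KO gave 11 and 4 reads against 5 and 17 from WT, so the groups overlapped.

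**Figure D1:**
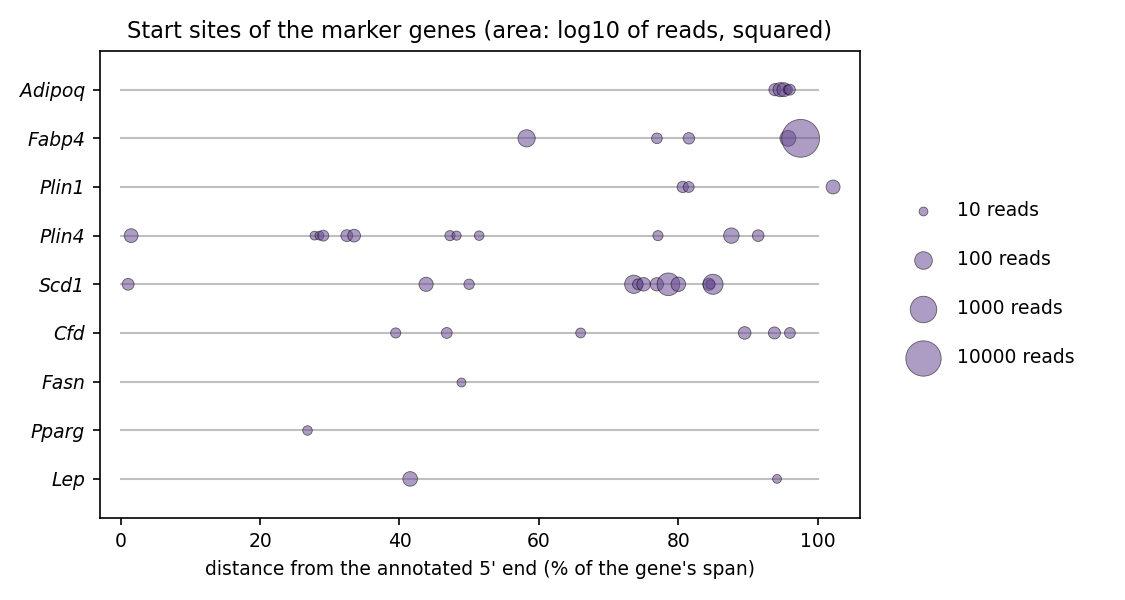
Start sites of the 9 marker genes with reads, by distance from the annotated 5′ end in % of the gene's span (x axis), with 1 line per gene and circles sized by reads over the 4 libraries. Sites of Adipoq lie together near the 3′ end, the largest circle is the Fabp4 site at 97.5% of the span, and those of Plin4 are spread from 1.51 to 91.5%.

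No marker gene was called different between KO and WT. By the Wald test of DESeq2 (Benjamini-Hochberg adjusted p under 0.1, the threshold of the study), 6 of the 9 genes had enough reads to be tested, and 0 were called in either direction. Over all 4688 genes tested, 1.71% were called higher in KO and 0.96% lower. At an unadjusted p under 0.05, 1 marker gene, Scd1, was lower in KO by DESeq2 and by the quasi-likelihood test of edgeR, which also called 0 of 6. Over all 9838 genes, 677 had an unadjusted DESeq2 p under 0.05, in either direction. On normalized counts, which are reads divided by a size factor per library, 7 of the 9 genes had a lower mean in KO and 2 a higher one. Over all genes, 5201 of 9838 had a log2 fold change above 0. Of the 7 lower genes, Fasn and Pparg had too few reads to be tested and Fabp4 was at -0.04. The median log2 fold change (KO minus WT) was -0.51 for the 9 genes and 0.07 for all genes. It stayed at -0.51 with Pparg, which had no reads in KO, set at the bound given by the floor. Both WT libraries were above both KO libraries for 2 of the 9 genes, Scd1 and Plin4, and for 17.6% of all genes. The reverse held for 0 of the 9 and for 21.7% of all genes. Without WT replicate 1 the median turned to 0.19, so its sign rested on that library. The median of all genes was then 0.19 as well.

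**Figure D2:**
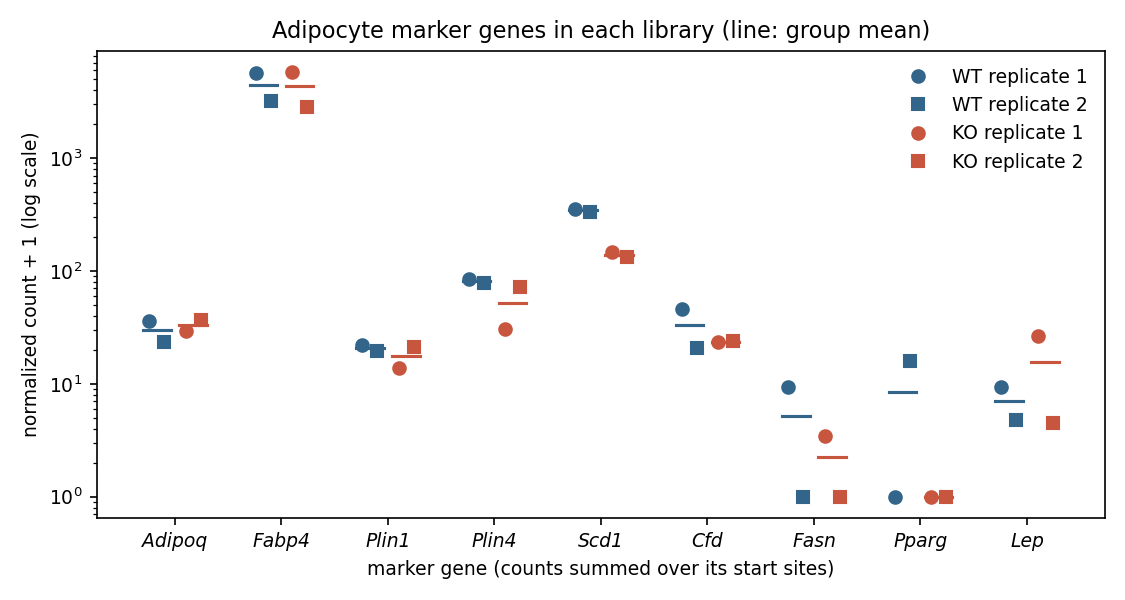
Normalized count + 1 (log scale) of each marker gene in each library, with circles for replicate 1, squares for replicate 2 and a line at each group mean. The Scd1 values of WT, 355 and 330, stand above those of KO, 145 and 131, whereas the Fabp4 values of the groups overlap.

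Scd1, the stearoyl-CoA desaturase that makes monounsaturated fatty acids for triglyceride, showed the clearest separation of the 9 genes. Its normalized counts were 145 and 131 in KO (138 ± 10.1, SD, n = 2) and 355 and 330 in WT (342 ± 17.5, SD, n = 2), from 238, 150, 253 and 265 reads. The WT mean was 2.48 times the KO mean, and the gap between groups was wider than the spread within either. The log2 fold change was -1.31 (SE 0.46, 95% interval -2.22 to -0.40). The adjusted p was 0.146 by DESeq2 and 0.295 by edgeR, so the difference did not pass the threshold after correction over all genes. Across 13 alternatives the log2 fold change ran from -1.48 to -1.13 and the adjusted p, by DESeq2 or edgeR, from 0.127 to 0.960. The related desaturase Scd2 had 7.33 and 13.1 normalized counts in KO and 14.0 and 28.6 in WT, the same direction as Scd1 (log2 fold change -1.07, SE 1.13, not tested by DESeq2). How the authors treated reads that fit several genes was not given in the sources used here.

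Scd1 lies at chr19:44394450-44407709 on the minus strand (GRCm38) and had 12 sites. The lower mean in KO was spread over these sites: 9 of the 12 had both WT libraries above both KO libraries, against 13.9% of all sites, though sites of 1 gene share their transcripts and are not separate evidence. A block of 9 sites over 1506 bp, 9760 to 11266 bp from the 5′ end of the gene, carried most of the reads. It held 91.2 and 90.7% of the Scd1 reads in KO and 87.7 and 95.8% in WT, so these shares overlapped between the groups. The largest site, chr19:44397217-44397412, had 107 and 64 reads in KO and 86 and 106 in WT, which in normalized counts was 70.2 and 55.2 against 117 and 122. The site at chr19:44396410-44396447 had 36 and 43 reads in KO and 64 and 45 in WT. The site at chr19:44397915-44398004 had 28 and 10 reads in KO and 33 and 47 in WT. This last one was nearest to a call, at a log2 fold change of -1.87 (SE 0.98), an unadjusted DESeq2 p of 0.0566 (adjusted p = 0.552) and an unadjusted edgeR p of 0.0316 (adjusted p = 0.407).

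Only 1 of the Scd1 sites was higher in both KO libraries. This intronic site, chr19:44401074-44401097, had 6 and 9 reads in KO and 0 in both WT libraries, while the exonic site chr19:44396488-44396490 had 0 in both KO libraries and 6 and 5 in WT. Neither had enough reads to be tested. Near the annotated start, 143 bp from it, a site at chr19:44407564-44407572 had 7 and 1 reads in KO and 8 and 6 in WT.

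**Figure D3:**
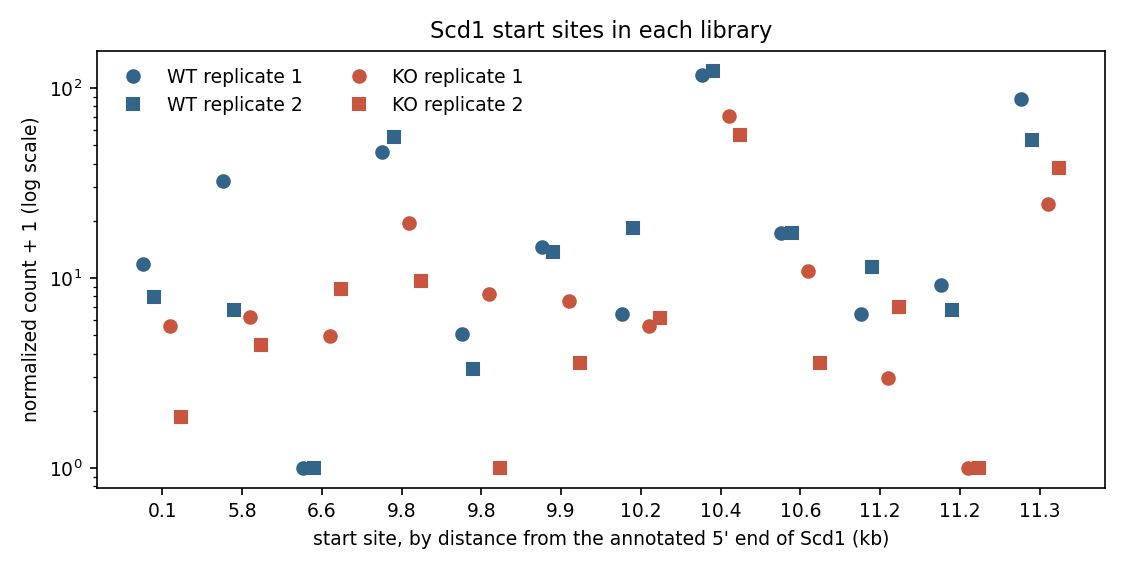
Normalized count + 1 (log scale) of the 12 Scd1 sites in each library, ordered by distance from the annotated 5′ end in kb, with circles for replicate 1 and squares for replicate 2. At 9 of the 12 sites both WT points stand above both KO points, and at 1 intronic site the order is reversed.

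Fabp4, the fatty acid binding protein of adipocytes, had the most reads and did not follow genotype. Its normalized counts were 5792 and 2861 in KO and 5720 and 3197 in WT. Replicate 1 was 2.02 times replicate 2 in KO and 1.79 times in WT, so the spread within each group was wider than the difference between the group means. The log2 fold change was -0.04 (SE 0.48, 95% interval -0.98 to 0.90; DESeq2 adjusted p = 0.992), an interval that leaves room for a change by nearly a factor of 2 either way. Leaving out WT replicate 1 moved it to 0.44 and leaving out KO replicate 1 to -0.63.

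Nearly all reads of Fabp4, which lies at chr3:10204342-10208616, came from 1 narrow site. At chr3:10204435-10204468 (minus strand, code c), 105 bp before the 3′ end of the gene and 4169 bp from its 5′ end, KO had 9447 and 3214 reads and WT 4043 and 2509, which was 99.0% of the reads of the gene. Among 2470 genes with at least 5 sites, the median share of the largest site was 40.2%, 74 genes had a share of at least 90%, and 4 had a higher share than Fabp4. The other 4 sites of Fabp4 together had 35 and 60 reads in KO and 36 and 58 in WT, so the excess of replicate 1 over replicate 2 seen at the main site was absent from them. Without the main site, an alternative added after the values were seen, the log2 fold change was -0.74 (DESeq2 adjusted p = 0.923). Reads copied by PCR were not marked by molecular identifiers, and their part in the main site was not tested.

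Plin4, a perilipin that coats lipid droplets and is also made by muscle fibres, had 12 sites along its whole length at chr17:56100587-56109948, all exonic. Its normalized counts were 29.3 and 71.7 in KO and 84.1 and 77.2 in WT. Both WT libraries were above both KO libraries, but KO replicate 2 was close to them and the KO libraries were far apart. The log2 fold change was -0.68 (SE 0.69; DESeq2 adjusted p = 0.911), and it was -0.16 without KO replicate 1 and -1.45 without KO replicate 2, so its size rested on which KO library was used. The largest site, chr17:56101712-56101799, had 16 and 4 reads in KO and 22 and 14 in WT. One site, chr17:56105117-56105135, had 6 reads in each KO library and 0 in both WT libraries.

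Plin1, the perilipin that guards the droplet of the adipocyte from lipases, had 12.8 and 20.1 normalized counts in KO and 21.0 and 18.7 in WT, from 15 to 23 reads per library. The groups overlapped (DESeq2 adjusted p = 0.992; log2 fold change -0.27, SE 1.04). The gene lies at chr7:79721164-79732904, and the largest of its 3 sites, with 38 reads over the 4 libraries, lay 258 bp past the annotated 3′ end. Cidec, which fuses lipid droplets, had no site; as the lowest total of any site listed was 10 reads over the 4 libraries, it may have had reads below that limit.

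Among the secreted factors, Adipoq, which encodes adiponectin and is the most adipocyte-restricted of these genes, had 28.1 and 35.8 normalized counts in KO and 35.1 and 22.4 in WT. The ranges overlapped almost wholly, and the log2 fold change was 0.15 (SE 0.85, 95% interval -1.51 to 1.82; DESeq2 adjusted p = 0.992). It lies at chr16:23146536-23157968, and all 5 of its sites were exonic and stood 457 to 701 bp before the 3′ end of the gene. Cfd, which encodes the complement protease adipsin, had 22.6 and 22.7 in KO and 44.9 and 19.9 in WT (DESeq2 adjusted p = 0.967; log2 fold change -0.51, SE 0.90). Its 6 sites were spread along chr10:79890853-79892655. The Cfd mean of WT rested on its replicate 1, since replicate 2 was below both KO libraries. Lep, which encodes leptin, had 42 and 4 reads in KO and 6 and 3 in WT, too few to be tested. Its excess lay in KO replicate 1 alone, and 35 of those 42 reads were at an intronic site, chr6:29065879-29065893. Without that library the log2 fold change of Lep went from 1.28 to -0.79.

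Fasn, the fatty acid synthase, and Pparg, the nuclear receptor that drives adipocyte differentiation, were near the limit of detection and were not tested. Fasn had 1 site, at chr11:120815777-120815805, with 4 and 0 reads in KO and 6 and 0 in WT. The single site of Pparg was intronic, at chr6:115395558-115395568, and had 12 reads in WT replicate 2 and 0 in the other 3 libraries. A difference between groups was not detectable for either gene at this depth.

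**Figure D4:**
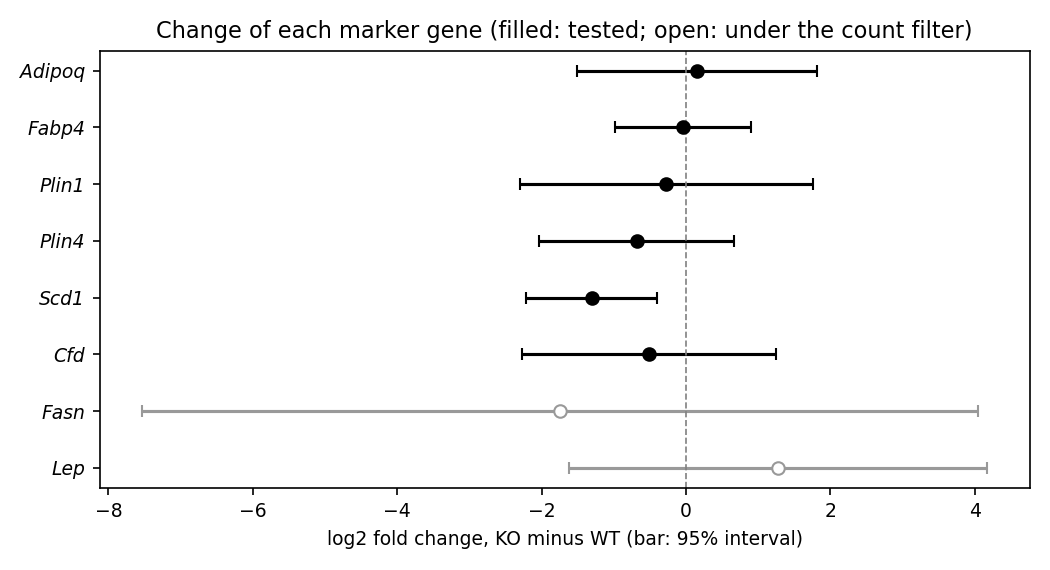
Log2 fold change (KO minus WT) of 8 marker genes with its 95% interval, filled where the gene was tested and open where it was under the count filter. Pparg, with no reads in KO, is left out. Only the interval of Scd1, -2.22 to -0.40, stands clear of 0 before correction.

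Site by site, 13 of the 47 marker sites were tested by DESeq2 and 0 were called, with 0 at an unadjusted p under 0.05, and edgeR tested 13 and called 0, with 1 at an unadjusted p under 0.05. Over all 11112 sites tested, 2.33% were called higher in KO and 0.882% lower. Both WT libraries were above both KO libraries at 16 marker sites, of which 9 were of Scd1 and 4 of Plin4, and at 13.9% of all sites. The reverse held at 4 marker sites, against 22.2% of all sites. Depth limits these counts: the median total of a marker site over the 4 libraries was 21 reads, and 29 of the 47 sites had fewer than 25.

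Summed over the 9 genes, the marker reads made up 3420 and 1563 ppm in KO and 3443 and 1885 ppm in WT, which followed Fabp4, high in replicate 1 of each group. With Fabp4 left out they were 150 and 142 ppm in KO and 305 and 249 ppm in WT, so the groups stood apart. With Scd1 left out as well they were 68.3 and 76.4 ppm in KO and 111 and 80.3 ppm in WT. Both WT libraries were still above both KO libraries, but KO replicate 2 and WT replicate 2 were close. The size of the gap between the groups therefore rested largely on Scd1, while their order remained without it. No test was made of these sums, since 2 libraries against 2 allow an exact permutation p of no less than 0.333.

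Other genes of fat and lipid metabolism gave a similar lack of calls, with 0 genes past the threshold in each of 5 lists by DESeq2 or edgeR. Over all genes tested by DESeq2, 1.71% were called higher in KO and 0.96% lower, so lists this short could hold 0 calls without differing from other genes. At an unadjusted DESeq2 p under 0.05 there was 1 gene in all, Cdh13, against 677 of 9838 over all genes. On lipid droplet and lipolysis genes, 7 of 14 had a site, 5 were tested and the median log2 fold change was -0.41. Mgll, which encodes monoacylglycerol lipase, the last step of lipolysis, had 26.3 and 35.8 normalized counts in KO and 18.2 and 98.4 in WT, so its WT replicates stood on either side of KO. Fitm2, which partitions fat into droplets, had 19.5 and 28.0 normalized counts in KO and 32.3 and 42.3 in WT, where both WT libraries were above both KO libraries. Its log2 fold change was -0.66 (SE 0.84), within the error of the fit.

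Of 20 lipogenesis genes, 13 had a site, 8 were tested and the median was 0.30. Over the same 13 genes it turned to -0.26 without KO replicate 1. It was -0.38 over the 10 genes with exonic sites and -0.03 over the 11 genes tested by edgeR, so these medians cover fewer genes. Acaca, the acetyl-CoA carboxylase that AMPK phosphorylates, had 66.6 and 86.5 normalized counts in KO and 40.7 and 22.4 in WT, which gave a DESeq2 adjusted p of 0.599 at a log2 fold change of 1.28 (SE 0.71). All Acaca reads were intronic. Lpin1, a phosphatidate phosphatase, had 169 and 100.5 normalized counts in KO and 231 and 255 in WT (log2 fold change -0.85, DESeq2 adjusted p = 0.670). Of the Lpin1 reads, 49.2% were intronic.

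Among 14 regulators of adipocyte formation, 12 had a site, 10 were tested and the median was 0.30. Ebf2, a factor of brown and beige adipocyte precursors, had 123 and 64.7 normalized counts in KO and 56.1 and 38.6 in WT, all from intronic sites (log2 fold change 0.99, DESeq2 adjusted p = 0.744). Ebf1, a related factor, had 809 and 919 normalized counts in KO and 1485 and 1009 in WT (log2 fold change -0.53, DESeq2 adjusted p = 0.856). Of the Ebf1 reads, 38.5% were intronic. The list's median was below 0 when either KO library was left out, at -0.03 and -0.11. It was 0.65 on exonic sites alone, which only 9 of the 12 genes had.

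Of 18 other adipocyte genes, 10 had a site, 8 were tested and the median was 0.11, which turned to -0.16 without KO replicate 2. Over fewer genes, 9 in each case, it was 0.01 without KO replicate 1 and 0.46 on exonic sites alone. Cdh13, which encodes T-cadherin, a receptor of adiponectin, had 365 and 320 normalized counts in KO and 147 and 196 in WT, and 97.6% of its reads were intronic. Its log2 fold change was 1.00 (SE 0.47) with an unadjusted DESeq2 p of 0.0336 and an adjusted p of 0.439. Cd36, the fatty acid translocase, had 33.0 and 20.1 normalized counts in KO and 61.7 and 62.3 in WT (DESeq2 adjusted p = 0.675, log2 fold change -1.22, SE 0.74). Of the Cd36 reads, 48.5% were intronic. Its other sites had 33 and 17 reads in KO and 22 and 16 in WT. Divided by the size factors, these counts of KO and WT overlapped narrowly. Of 6 brown fat genes, including Ucp1, only Dio2 had a site, with 18 and 3 reads from KO and 11 and 17 in WT, too few to be tested.

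Fibroblast genes had lower means in KO along with Scd1, and their part in its difference was not tested. All 12 of the fibroblast genes listed had a lower mean in KO, 1 of 11 tested (Sparc, a matrix glycoprotein, DESeq2 adjusted p = 0.0739) was called by DESeq2, and the list took 2077 and 1866 ppm in KO and 2984 and 2771 ppm in WT. The call of Sparc was not made by edgeR (adjusted p = 0.255) or at a threshold of 0.05. Over all genes, 0.96% of the 4688 tested by DESeq2 were called lower in KO, and 5201 of 9838 had a log2 fold change above 0. The fibroblast genes ranged from -1.35 to -0.08, and for several of them the libraries of KO and WT overlapped. The macrophage list, of which 6 of 8 genes had a site and Cd68 and C1qa had none, took 103 and 85.5 ppm in KO and 163 and 120 ppm in WT. This gap rested on Adgre1, which encodes the surface marker F4/80, since the other 5 genes took 84.8 and 76.8 ppm in KO and 93.8 and 83.5 ppm in WT, which overlap. The endothelial list, with 6 of 8 genes, took 168 and 161 ppm in KO and 146 and 130 ppm in WT. That order rested on the VEGF receptor gene Flt1, without which the sums were 34.5 and 74.2 ppm in KO and 66.2 and 55.5 ppm in WT, and 3 of the 6 genes had a lower mean in KO. Blood genes (3 of 7 with a site) took 9.56 to 16.2 ppm and Schwann cell genes (3 of 5) 7.01 to 47.7 ppm, with overlapping groups. The median log2 fold change was -0.62 for the fibroblast list, -0.34 for the macrophage list, 0.06 for the endothelial list and -0.09 for the muscle fibre list. On exonic sites alone the macrophage median was 0.29 and the endothelial one -0.19, each over 5 genes in place of 6. The endothelial median was also below 0 without KO replicate 2 (-0.35), without either WT library (-0.13 and -0.05) and with the replicate block (-0.10).

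**Figure D5:**
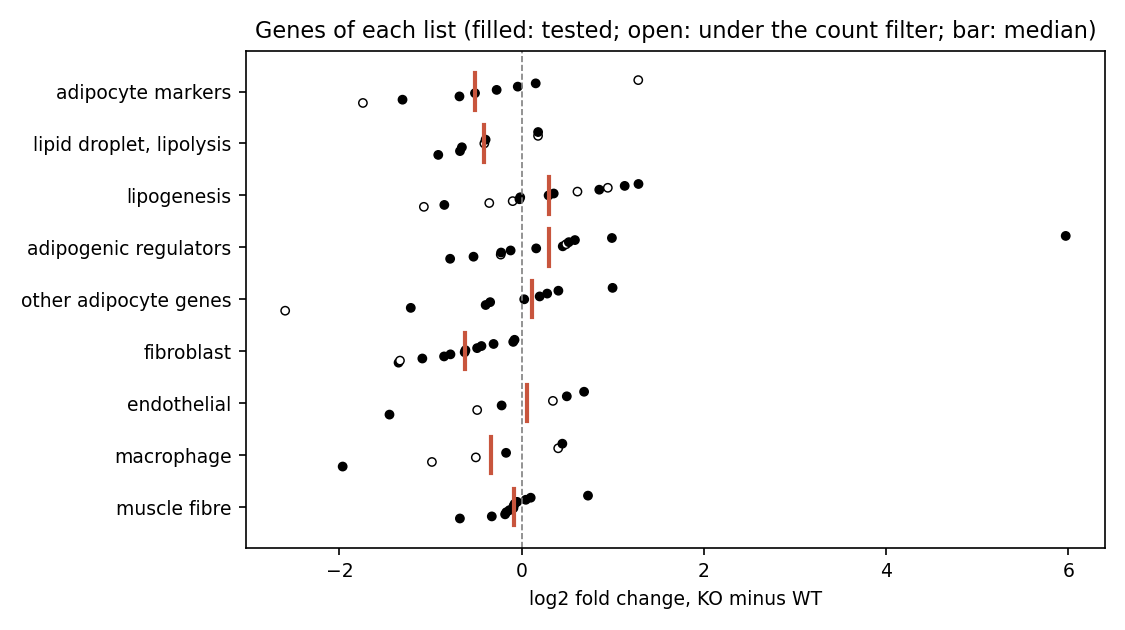
Log2 fold change (KO minus WT) of each gene of 9 lists, filled where tested and open where under the count filter, with the median of the list as a bar. Genes without reads in a whole group are left out of the points. All 12 fibroblast genes lie below 0, and the other lists lie on both sides.

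The mean profile of the 7 marker genes with at least 5 normalized counts, centred on the log2 scale, was -0.03 and -0.25 in KO and 0.42 and -0.14 in WT, so it peaked in WT replicate 1. Of 4247 genes with at least 20 normalized counts, the nearest to this profile by Euclidean distance over the 4 libraries were Fkbp1a (0.0406), Tgfbr3 (0.0823), Fam204a (0.0977), Rbbp6 (0.106) and Mib1 (0.111). With 4 libraries many genes lie close to any profile, and none of these 5 was called different between KO and WT (DESeq2 adjusted p from 0.920 to 0.992).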

How the data were processed

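The authors deposited raw read counts in 1 table, whose rows were clustered start sites and whose columns were libraries. According to the study's methods, RNA depleted of ribosomal RNA was reverse transcribed with a switching and a semirandom primer, selected by size, amplified by PCR and sequenced on the Ion PGM. Mapping and clustering were described for sister libraries of 3′ ends, and whether each setting was the same here was not stated. The build was GRCm38.p5 per the labels, and gene spans and promoters were those of RefSeq for GRCm38.p6, whose primary chromosomes share its coordinates. The lowest total of a site was 10 reads. The line of column totals was left out, as were sites without a gene symbol in sums per gene.

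KO and WT were compared with DESeq2 1.42.0 (R 4.3.3; median-of-ratios size factors, Wald test, default independent filtering, Benjamini-Hochberg adjusted p under 0.1, as in the study), across all sites and across all genes. Filtering kept genes with a mean normalized count above 16.5 and sites above 8.76. The quasi-likelihood test of edgeR 4.0.16 (TMM, filterByExpr) tested 6115 genes. Both were tested on simulated data. Fold changes are fitted values without shrinkage. The members and lists were chosen with earlier results of these data known. Genes of the lists were named where they passed the threshold or, where none of a list did, as the 2 with the smallest unadjusted p, and the 5 genes nearest to the mean marker profile, computed on log2(normalized count + 1), were added; Sparc, Adgre1, Flt1, Scd2 and Prkaa2 were named after their values were seen. Alternatives covered the test, the scaling, the filter, the threshold, a replicate block, each library left out and the sites summed. Same-numbered libraries deviated together with a correlation of 0.07 over 5821 genes, which gives no ground to pair them. The methods name no molecular identifiers, and PCR copies of a read were therefore counted as reads. With 2 mice per group, errors cover the spread between these mice only.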

Additional observations from a re-analysis of the deposited data

How the results depend on the processing

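No marker gene and no marker site was called under any alternative run. The log2 fold changes of Scd1 and Plin4 kept their sign in the 13 alternatives. Those of the threshold and of the filter leave a fold change as it is, and a stricter threshold cannot add a call. The median log2 fold change of the marker genes ran from -0.63 to 0.19 with 1 library left out, and only WT replicate 1 turned its sign; that library also carried the highest centred level of the marker profile. Without it the fold change of Fasn, which was not tested, went from -1.74 to 2.43. With the replicate number as a block, Scd1 had a log2 fold change of -1.31 (DESeq2 adjusted p = 0.273), the marker median was -0.41, and 63 genes were called higher and 32 lower in KO, against 80 and 45 without it. The block lowered the called sites from 259 to 145 higher and from 98 to 50 lower. Over all genes, edgeR called 33 higher and 21 lower, exonic sites alone gave 41 and 18, and leaving out 1 library gave 34 to 64 higher and 9 to 36 lower. Over all sites, edgeR called 48 higher and 32 lower, no independent filtering gave 123 and 52, a threshold of 0.05 gave 157 and 65, and leaving out 1 library gave 28 to 227 higher and 16 to 84 lower. A group left with 1 library was assumed to vary like the other. The cause of these shifts was not tested. The median of all genes moved from 0.07 to between -0.03 and 0.19. At 1300069 to 2900279 reads per library, most marker sites were too shallow for a test.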
